A study of Mus musculus with 14 samples.

Results

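The mitochondrial ribosomal protein genes were examined in mouse hearts after cardiomyocyte loss of Fam210a. Members were chosen by symbol, as Mrpl or Mrps followed by a number and at most 1 letter, with 10 or more counts in at least 3 libraries. Of 53735 symbols present in both count tables, 77 matched the pattern and 76 met the count rule. These are 47 genes named for the large subunit (Mrpl) and 29 named for the small subunit (Mrps). Mrpl53, a protein of the large-subunit stalk, was the symbol left out, with 0 or 1 count in each early heart and 0 in every late heart. The gene shares 88% of its exon bases with Ccdc142os and Gm42688. The effect of this on its count was not tested, so the count does not show whether it is expressed. The next lowest members were Mrps36 and Mrpl23, with 109 to 571 and 89 to 189 counts per heart.

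Hearts came from male C57BL/6 mice that all carried the αMHC-MerCreMer transgene (alphaMHCMCM/+), a Cre recombinase active in cardiomyocytes after tamoxifen, and all had received tamoxifen. Knockout mice (cKO) were in addition Fam210afl/fl, and controls had the transgene without floxed alleles. There were 4 cKO and 4 control hearts about 5 weeks after tamoxifen (early), when the series describes heart function as normal, and 3 cKO and 3 control hearts about 10 weeks after it (late), when function was poor. Ages of the mice are not stated in the labels. Early cKO replicate 4 has the title of a knockout and the genotype entry of a control, and it was analysed as a knockout.

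The mitochondrial ribosome translates the few membrane proteins that are encoded by mitochondrial DNA, all of them subunits of the oxidative phosphorylation complexes. Its ribosomal RNAs are made inside the organelle, whereas every one of its proteins is encoded in the nucleus, translated in the cytosol and imported. Some of these proteins descend from bacterial ribosomal proteins and others are specific to mitochondria. The heart, which relies on oxidative phosphorylation, is a tissue in which inherited defects of the particle cause cardiomyopathy.

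Libraries held 15657298 to 19466469 counts early and 29989076 to 35750964 late, and the members took between 0.295% and 0.455% of them. Fam210a stood at 135.4 to 157.9 CPM (counts scaled to the size of the library) in early cKO hearts and 165.2 to 177.5 in early controls, a log2 difference of -0.22 that missed the threshold (edgeR adjusted p = 0.17), while DESeq2 called it lower (log2 -0.23, adjusted p = 0.0456). In late hearts it stood at 64.6 to 70.8 CPM against 120.1 to 133.9, a log2 fold change of -0.94 ± 0.11 (SE, adjusted p = 6.5e-05). The count covers the whole gene, in RNA of the whole heart. Late cKO replicates 1 and 2 differed by a chi-square of 21.5 per gene, and replicate 3 differed from them by 107 and 101. Counts of late calls among the members and the other genes of mitochondrial translation are therefore given with and without it, and those of the cell markers with all 6 hearts.

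Markers of the cells of the heart moved in the late hearts as well. All 5 endothelial markers fell (summed level 327 to 391 CPM in cKO hearts and 781 to 964 in controls). The same test called 4 of 8 cardiomyocyte markers lower (58380 to 69846 against 67970 to 78397 CPM), 3 of 6 fibroblast markers lower (627 to 836 against 968 to 1263) and 4 of 6 macrophage markers lower (119 to 164 against 208 to 211). Of 5 smooth muscle and pericyte markers 4 fell and 1 rose (1479 to 2226 against 1062 to 1187). Adipocyte markers were called lower in 2 of 3 tested (240.3 to 351 against 533 to 700 CPM). Of 5 atrial markers 1 rose and 1 fell (1751 to 2890 against 131 to 948). None of these markers was at 0 in all hearts, and their part in the changes of the members was not tested. In whole-heart RNA, fewer cells of a type and less RNA per cell cannot be told apart.

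At about 5 weeks no mitochondrial ribosomal protein gene was called at an adjusted p under 0.05, in either subunit. Over all genes 0.613% were called. DESeq2 also called 0 of 76 members, and at an unadjusted p under 0.05 there were 6 members with edgeR and 3 with DESeq2. The median log2 difference between cKO and control hearts was -0.04 for Mrpl and -0.05 for Mrps, with a range over all members of -0.21 to 0.25, and 52 of 76 values were negative. The median over all genes was 0.000331. Leaving out a heart moved the Mrpl median to between -0.08 and 0.0008 and the Mrps median to between -0.09 and -0.0032. Without control replicate 3, 15 members changed sign.

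Mrpl28, a large-subunit protein of bacterial origin, had the smallest early p. It stood at 72.5, 69.4, 77.9 and 75.8 CPM in the 4 cKO hearts and at 84.7, 80.6, 96.3 and 80.9 in the controls. Every cKO heart lay below every control heart, with a log2 difference of -0.21 ± 0.07 (SE) and an adjusted p of 0.28. Only 3 of 76 members had groups that did not overlap, Mrpl28 and Mrpl44 with lower cKO hearts and Mrpl17 with higher ones (Mrpl17 and Mrpl44 are named here because their values were seen), while 5.65% of all genes had no overlap. Mrpl39, at the exit of the peptide tunnel, was at 56.4 to 63.0 CPM in cKO hearts and 60.8 to 72.4 in controls (log2 -0.17, adjusted p = 0.40). Mrpl18, of the central protuberance, was at 65.2 to 75.1 against 74.3 to 86.0 CPM (-0.16, 0.42). Mrpl23, also at the tunnel exit, was at 7.0 to 8.24 against 5.68 to 7.44 CPM (0.25, 0.48). The groups overlapped in each of these 3 genes.

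**Figure D1:**
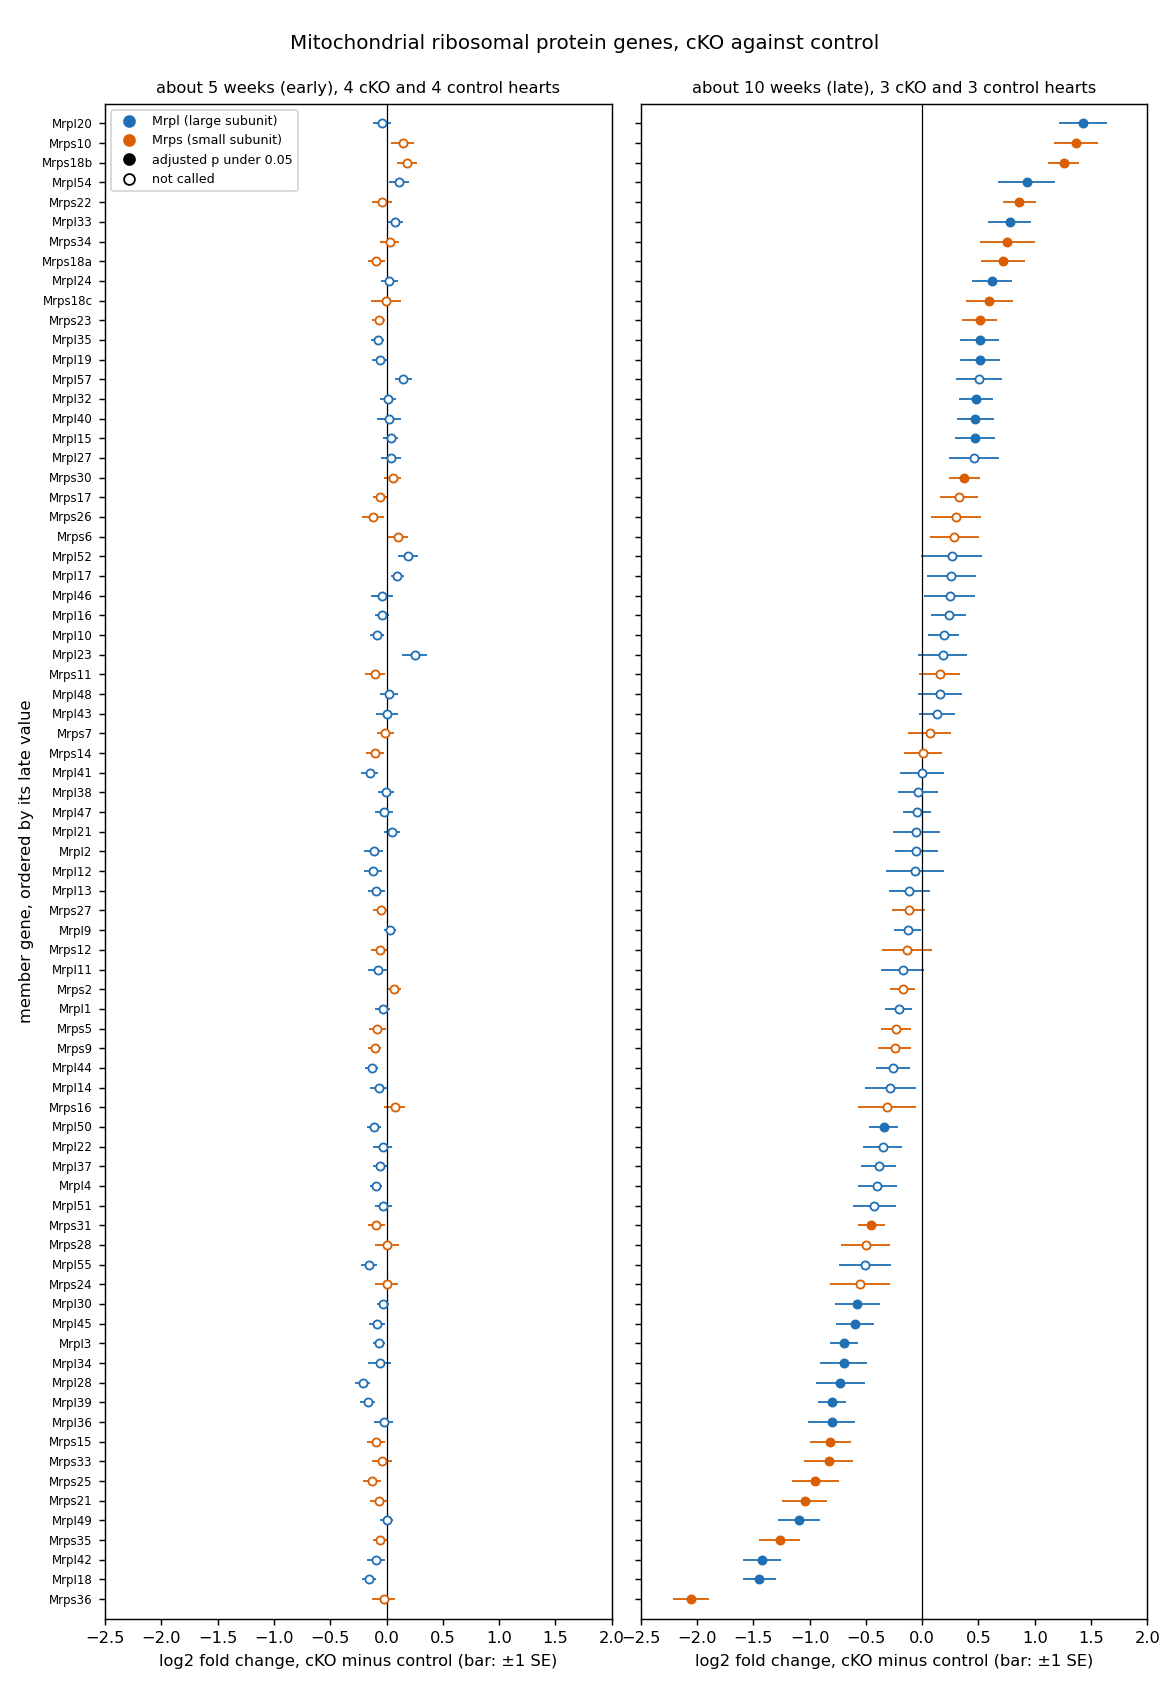
Log2 fold change of each of the 76 member genes, cKO minus control, at about 5 weeks (left) and about 10 weeks (right), with bars of 1 standard error. Genes are ordered by their late value. Blue marks Mrpl, orange marks Mrps and filled points passed an adjusted p of 0.05. Early values lie between -0.21 and 0.25 with no filled point, and late values spread from -2.05 for Mrps36 to 1.43 for Mrpl20.

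At about 10 weeks the members had moved apart from one another in both directions. Of 76 members 17 rose and 18 fell, and 41 did not pass the test. Over all genes 31.8% rose and 33.2% fell, so that 46.1% of members were called beside 65% of all genes. By symbol, Mrpl had 9 rises and 11 falls among 47 genes and Mrps 8 rises and 7 falls among 29. Structures place Mrps18a and Mrps30 in the large subunit. Counted that way, the large subunit had 11 rises and 11 falls among 49 genes and the small subunit 6 rises and 7 falls among 27. Medians stayed near 0, at -0.05 for Mrpl and -0.12 for Mrps, with -0.02 over all genes. The changes were mostly moderate. The median absolute log2 fold change was 0.44 for the members and 0.71 over all genes, and 11.8% of members differed by more than 2-fold, beside 35.9% of all genes. Groups did not overlap in 35 members, 17 with higher and 18 with lower cKO hearts, beside 69.8% of all genes.

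The count of falls depended on late cKO replicate 3. Without it 16 members rose and 37 fell, so that 69.7% of members were called, as were 69.7% of all genes. The Mrpl median was then -0.29 and the Mrps median -0.18, with -0.02 over all genes. Of the 35 calls made with all 6 hearts 34 kept their direction and call, 19 members were added, and none was called in the opposite direction. The call lost was that of Mrpl15, which was named after its values were seen. A total of 7 rises (Mrpl20, Mrpl33, Mrpl54, Mrps10, Mrps18a, Mrps18b and Mrps22) were called whichever single heart was left out. So were 13 falls (Mrpl3, Mrpl18, Mrpl36, Mrpl39, Mrpl42, Mrpl49, Mrps15, Mrps21, Mrps25, Mrps31, Mrps33, Mrps35 and Mrps36). The same count was not made over all genes, so whether the share of members is high or low was not tested. Each of these fits called between 8539 and 10720 of all genes. Scaling mattered too. With upper-quartile factors 8 members rose and 30 fell, beside 3848 rises and 5825 falls among all 14942 genes. The median over all genes was then -0.19.

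**Figure D2:**
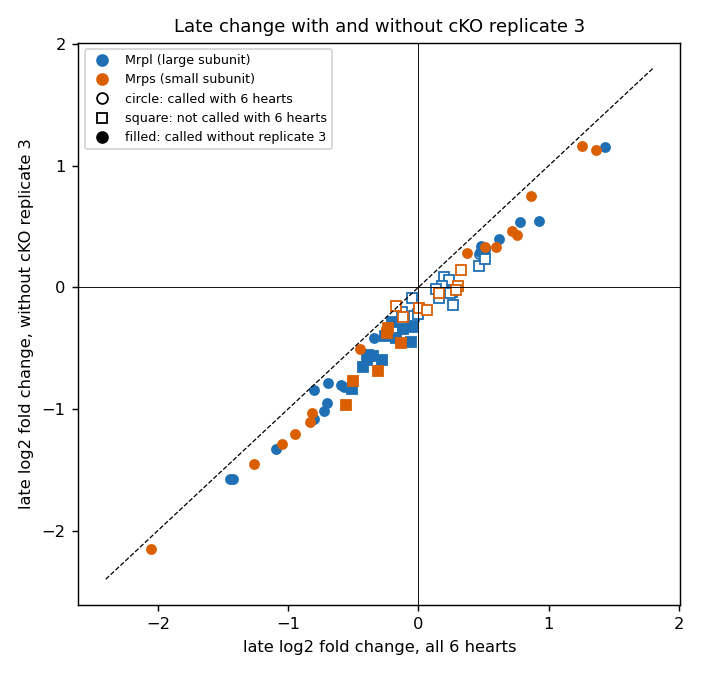
Late log2 fold change of each member with all 6 hearts (horizontal axis) and without cKO replicate 3 (vertical axis). Circles were called with 6 hearts, squares were not, and filled symbols were called without replicate 3. Most points lie below the dashed line of equal values, and the number of falls goes from 18 to 37.

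Among large-subunit genes the largest rises were those of Mrpl20, Mrpl54 and Mrpl33. Mrpl20 (ENSMUSG00000029066.12, chr4:155802878-155809975 on GRCm38, plus strand) encodes the counterpart of a bacterial protein that binds the large ribosomal RNA early in assembly. It stood at 64.5, 71.8 and 113.9 CPM in the 3 cKO hearts and at 35.5, 29.7 and 27.7 in the controls. All cKO hearts lay above all controls, replicate 3 highest, with a 2.69-fold difference (log2 1.43 ± 0.21, SE; adjusted p = 0.00035). Mrpl54 (chr10:81264713-81266934, minus strand), a mitochondria-specific protein of the stalk region, stood at 49.2, 50.1 and 97.1 CPM in cKO hearts and 38.9, 34.8 and 29.5 in controls. Its log2 fold change was 0.93 ± 0.26 (adjusted p = 0.011) and 0.54 ± 0.12 without cKO replicate 3. Mrpl33 (chr5:31596935-31664384, plus strand), a small protein of bacterial origin, stood at 55.1, 57.5 and 88.3 CPM against 43.9, 38.6 and 34.7. The groups did not overlap, and the log2 fold change was 0.78 ± 0.19 (adjusted p = 0.0058).

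Among small-subunit genes Mrps10, Mrps18b and Mrps22 rose most. Mrps10 (chr17:47368887-47381417, plus strand), a protein of the head of the subunit, stood at 36.3, 37.3 and 57.1 CPM in cKO hearts and 19.1, 16.9 and 14.8 in controls. Even the lowest cKO heart exceeded the highest control, and the difference was 2.58-fold (log2 1.36 ± 0.19, adjusted p = 0.00025). Mrps22 (chr9:98588730-98601660, minus strand), a mitochondria-specific protein whose inherited loss causes cardiomyopathy in infants, stood at 25.8, 31.9 and 36.4 CPM against 18.6, 16.4 and 16.8. Here too the groups were apart, with a log2 fold change of 0.86 ± 0.15 (adjusted p = 0.00073).

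Mrps18a, Mrps18b and Mrps18c are paralogues that descend from 1 bacterial protein and occupy different sites of the particle, Mrps18a in the large subunit despite its symbol. All 3 rose in late cKO hearts. Mrps18b (chr17:35910379-35916389, minus strand) stood at 39.4, 42.9 and 51.0 CPM against 20.7, 18.3 and 16.7, which is 2.39-fold higher (log2 1.26 ± 0.14, adjusted p = 5.94e-05). Mrps18a (chr17:46110986-46128910, plus strand) stood at 87.3, 84.4 and 138.1 CPM against 69.5, 63.0 and 55.6 (log2 0.72 ± 0.19, adjusted p = 0.0096). Mrps18c (chr5:100798627-100804471, plus strand) stood at 18.8, 19.7 and 31.7 CPM against 17.1, 16.1 and 13.2 (log2 0.59 ± 0.21, adjusted p = 0.031).

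The 3 paralogues differed in how firmly the rise was placed. Groups did not overlap in any of them, but in Mrps18a and Mrps18c replicate 3 carried much of the size, with log2 values of 0.46 and 0.33 without it. The call of Mrps18c was lost without control replicate 2 (log2 0.62, adjusted p = 0.068), without control replicate 3 (0.49, 0.108) and with upper-quartile scaling (0.42, 0.104). Mrps18b shares 30.5% of its exon bases with the gene Gm16279 and Mrps18c shares 23.2% with Gm43511, and the libraries do not mark the strand, so reads from these stretches cannot be told apart.

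Stretches before the RefSeq start of 6 members whose late calls went in both directions are shown. In 5 of them the stretch holds the same short motif, and that of Mrps18b, which holds a different one, is shown beside its 2 paralogues. Mrps18b has the motif of the other 5 as well, but after the start and so outside the stretch shown. The 6 genes were picked for display, so their share with the motif is not a result. The stretches come from RefSeq on GRCm38.p6, run 5′ to 3′ on the strand of the gene, and end at the start or at most 30 bases inside the GENCODE gene. Capitals mark the ETS core CCGGAAG, the binding motif of factors such as GABP, or its reverse complement. In Mrps18b they mark the NRF1 core GCGCATGCG on the reverse strand, and the first block of capitals in Mrps18c is the E-box CACGTG. The first 4 genes rose late and the last 2, Mrpl3 and Mrpl34, which were not picked by the naming rules, fell. Mrpl3 was at 52.3 to 64.1 CPM in cKO hearts against 82.7 to 99.7 (log2 -0.69, adjusted p = 0.0012). The groups of Mrpl34 overlapped (18.9 to 32.3 against 31.9 to 44.1 CPM, log2 -0.70, adjusted p = 0.016). Its call held in 2 of the 6 fits that left out 1 heart.
Mrps18a, chr17:46110754-46111003, plus strand: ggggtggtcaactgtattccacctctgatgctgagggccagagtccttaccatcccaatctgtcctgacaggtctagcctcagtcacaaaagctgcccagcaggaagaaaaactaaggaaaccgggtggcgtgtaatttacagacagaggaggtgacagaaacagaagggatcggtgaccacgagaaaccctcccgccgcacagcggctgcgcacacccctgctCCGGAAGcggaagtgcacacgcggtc
Mrps18b, chr17:35916441-35916690, minus strand: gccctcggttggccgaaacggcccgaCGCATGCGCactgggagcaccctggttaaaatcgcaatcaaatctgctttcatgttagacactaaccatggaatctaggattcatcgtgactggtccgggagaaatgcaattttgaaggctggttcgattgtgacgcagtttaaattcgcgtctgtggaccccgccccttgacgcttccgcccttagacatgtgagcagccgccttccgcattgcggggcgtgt
Mrps18c, chr5:100798509-100798656, plus strand: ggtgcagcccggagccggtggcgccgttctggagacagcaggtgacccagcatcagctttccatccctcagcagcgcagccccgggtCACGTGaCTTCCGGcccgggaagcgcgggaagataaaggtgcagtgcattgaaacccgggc
Mrps22, chr9:98601680-98601929, minus strand: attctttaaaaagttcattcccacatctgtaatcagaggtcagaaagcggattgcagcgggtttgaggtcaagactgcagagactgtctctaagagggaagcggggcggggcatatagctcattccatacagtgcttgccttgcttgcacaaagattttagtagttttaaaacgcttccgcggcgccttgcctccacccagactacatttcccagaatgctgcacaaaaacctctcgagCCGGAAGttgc
Mrpl3, chr9:105053018-105053267, plus strand: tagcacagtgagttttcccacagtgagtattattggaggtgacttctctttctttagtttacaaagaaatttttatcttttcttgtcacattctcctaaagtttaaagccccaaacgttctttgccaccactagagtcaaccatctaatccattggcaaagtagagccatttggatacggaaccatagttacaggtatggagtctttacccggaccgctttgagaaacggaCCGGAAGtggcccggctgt
Mrpl34, chr8:71464676-71464925, plus strand: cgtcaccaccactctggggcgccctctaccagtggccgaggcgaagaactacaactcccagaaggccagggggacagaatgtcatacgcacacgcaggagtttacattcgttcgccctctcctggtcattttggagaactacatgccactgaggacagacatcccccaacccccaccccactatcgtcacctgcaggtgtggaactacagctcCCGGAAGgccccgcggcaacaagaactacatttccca

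Motifs were counted on both strands in RefSeq windows of 300 bases, from 250 before to 50 after each start. The table held 73 windows for 67 of the 76 members and 32851 in all. The ETS core was in 32.9% of member windows and 8.86% of all windows, or 15.9% of windows of genes tested late. The NRF1 core was in 9.59% (1.75% of all, 3.41% of genes tested late) and the YY1 core AAGATGGCG in 11% (1.4% and 2.75%). The E-box was in 9.59% (7.15% and 9.67%) and the ATF4 element TGATGCAA in 0 of 73 (0.895% and 0.598%). Windows of members that rose held the ETS core in 6 of 13 cases, those of members that fell in 5 of 17 and those of the others in 13 of 43. A match describes letters only and not a site that is bound.

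Among large-subunit genes Mrpl18, Mrpl42 and Mrpl49 fell most. Mrpl18 (ENSMUSG00000057388.9, chr17:12911349-12916345, minus strand) encodes a protein of the central protuberance, the counterpart of the bacterial protein that binds 5S RNA. It stood at 28.7, 31.2 and 39.3 CPM in cKO hearts and at 100.3, 89.4 and 80.2 in controls. The highest cKO heart was below the lowest control by a wide gap, and the level was 2.72-fold lower (log2 -1.44 ± 0.15, adjusted p = 3.93e-05). Mrpl18 shares 10.1% of its exon bases with Tcp1. Mrpl42 (chr10:95480805-95501940, minus strand), a mitochondria-specific protein, stood at 84.1, 94.6 and 122.7 CPM against 306.9, 266.4 and 235.3. It was 2.68-fold lower, again without overlap (log2 -1.42 ± 0.17, adjusted p = 8.03e-05). Mrpl49 (chr19:6053622-6057785, minus strand), mitochondria-specific as well, stood at 14.7, 16.8 and 24.6 CPM against 43.0, 39.7 and 36.9 (log2 -1.09 ± 0.19, adjusted p = 0.00077).

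Among small-subunit symbols the largest fall was that of Mrps36 (ENSMUSG00000061474.11, chr13:100735955-100744659, minus strand). Its product, first described in small-subunit preparations, is now known as a subunit of the oxoglutarate dehydrogenase complex (Kgd4). It stood at 3.43, 3.98 and 4.56 CPM in cKO hearts and at 18.6, 15.4 and 15.69 in controls, which is 4.15-fold lower (log2 -2.05 ± 0.16, adjusted p = 7.68e-06). Mrps35 (chr6:147042764-147073991, plus strand), a mitochondria-specific protein of the head, stood at 28.4, 24.7 and 38.4 CPM against 85.5, 69.4 and 64.8 (log2 -1.26 ± 0.18, adjusted p = 0.00027). Mrps21 (chr3:95862634-95871519, minus strand), of bacterial origin, stood at 23.9, 25.1 and 39.1 CPM against 69.0, 60.9 and 51.6 (log2 -1.04 ± 0.20, adjusted p = 0.0015). In all 3 genes every cKO heart lay below every control. Mrpl39 fell too (40.1 to 45.1 against 65.0 to 81.6 CPM, log2 -0.80, adjusted p = 0.00042).

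**Figure D3:**
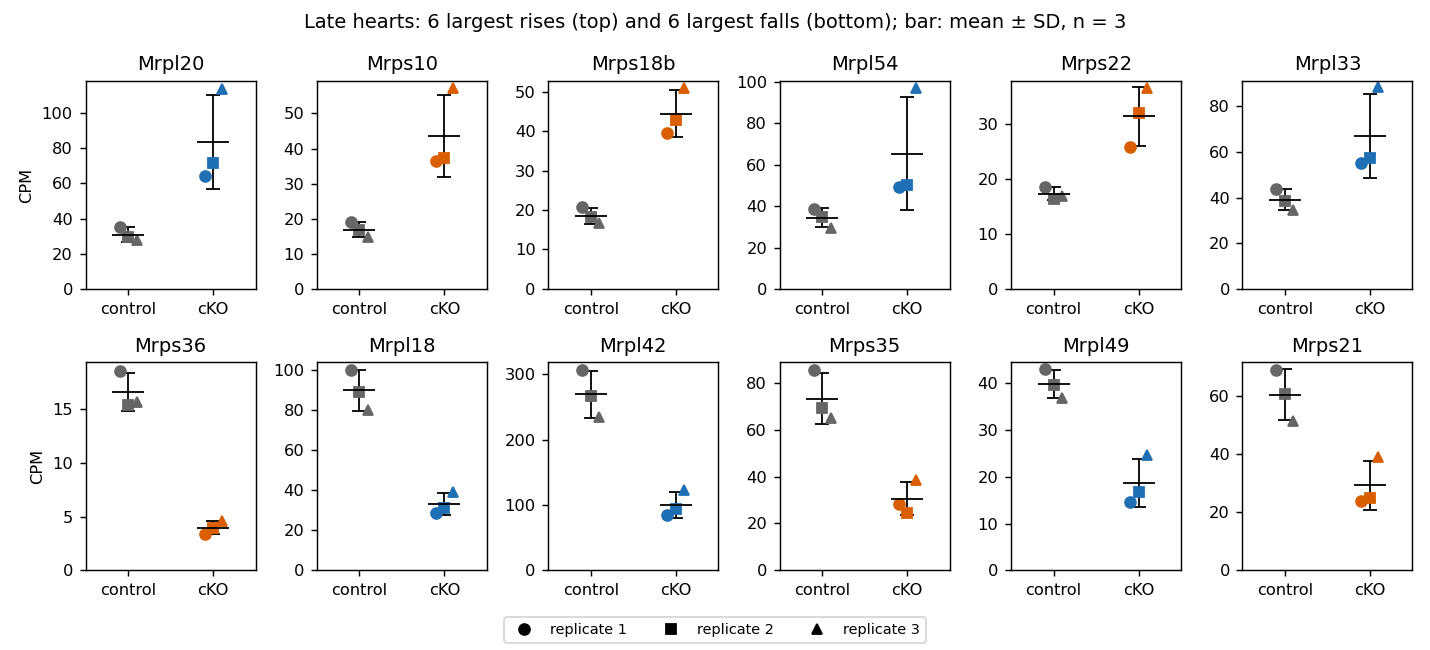
CPM in each late heart for the 6 members with the largest rises (top row) and the 6 with the largest falls (bottom row), with the mean and SD of 3 hearts. Marker shapes give the replicate number, grey the controls, blue Mrpl and orange Mrps. Groups do not overlap in any panel, and cKO replicate 3 (triangle) is the highest cKO heart in each of the 12.

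Several members stood at nearly the same level in both late groups. Mrpl41, a mitochondria-specific protein, was at 37.1, 42.8 and 60.6 CPM in cKO hearts and 54.6, 46.7 and 39.1 in controls (log2 -0.00087 ± 0.20). Mrps14 was at 30.5, 30.5 and 43.5 against 38.9, 35.2 and 29.97 CPM (0.0050 ± 0.17), and Mrpl38 at 46.2, 45.2 and 67.1 against 61.9, 52.4 and 48.1 CPM (-0.04 ± 0.18). In each of them the cKO group spanned a wider range than the controls because replicate 3 was high, and without that heart the log2 values of Mrpl41 and Mrpl38 were -0.22 and -0.23. Mrpl12, which recruits translation factors at the stalk, was at 109.6, 126.0 and 231.3 against 184.3, 162.9 and 139.6 CPM, and its log2 difference of -0.06 ± 0.26 became -0.45 without cKO replicate 3. Mrps12, of the decoding centre, was at 22.4, 21.4 and 39.0 against 33.3, 30.5 and 27.0 CPM (-0.14 ± 0.22, and -0.46 without that heart). Mrps30, which structures place in the large subunit, rose by 1.30-fold (47.6 to 60.0 against 36.3 to 45.1 CPM, adjusted p = 0.034), a call lost without control replicate 2 or control replicate 3 and with upper-quartile factors (log2 0.20, adjusted p = 0.213).

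In both late groups and in the early controls, 1 heart was highest for most members. Late cKO replicate 3 had the highest level of its 3 hearts in 75 of 76 members, beside 41.6% of all genes. Late control replicate 1 had the highest level of the controls in 75 of 76 (35.7% of all genes), and control replicate 3 the lowest in 68 of 76 (35.4%). In the early table, control replicate 3 was highest of 4 in 68 of 76 members (31.8% of all genes). The early cKO hearts were more mixed, with replicates 1 to 4 highest in 28, 18, 25 and 5 members and lowest in 13, 14, 7 and 42. Measured against the control mean of the table, the median member stood at -0.28, -0.24 and 0.33 on the log2 scale in late cKO replicates 1 to 3 and at 0.17, -0.01 and -0.16 in the controls. The early hearts ranged from -0.10 (cKO replicate 4) to 0.15 (control replicate 3).

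**Figure D4:**
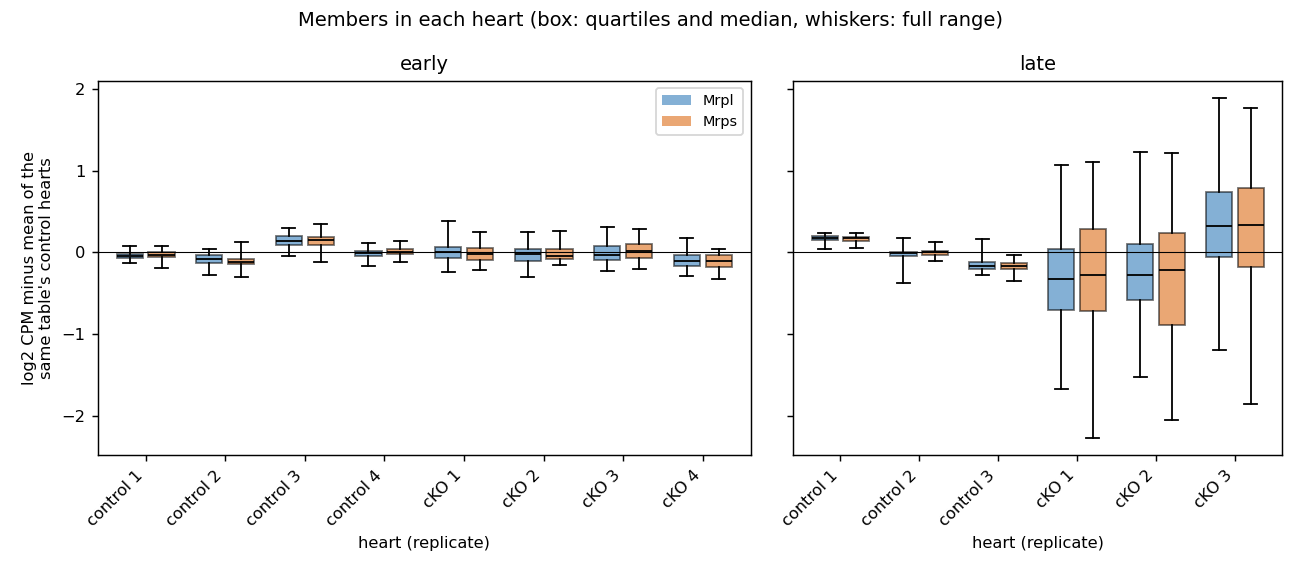
Log2 CPM of each member minus the mean of the control hearts of the same table, summarised per heart for Mrpl (blue, 47 genes) and Mrps (orange, 29 genes). Boxes give quartiles and median, whiskers the full range. The boxes of late cKO hearts are wide, and the median of late cKO replicate 3 lies at 0.32 for Mrpl and 0.33 for Mrps while replicates 1 and 2 lie below 0.

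Other gene groups shared part of this shift between hearts. The median cytosolic ribosomal protein gene stood at 0.00, 0.04 and 0.83 in late cKO replicates 1 to 3 against the control mean, and the median nuclear complex I gene at -0.999, -1.0 and -0.26. The median mitochondrial translation factor gene differed less between these hearts, at -0.35, -0.33 and -0.24. In late control replicates 1 to 3 the complex I median was 0.21, -0.02 and -0.19.

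The sum of genes named Mrpl was lower relative to the sum of genes named Mrps in late cKO hearts. Summed over members, the ratio of Mrpl to Mrps CPM was 1.89, 1.96 and 1.97 in late cKO hearts and 2.30, 2.27 and 2.28 in late controls. In early hearts it was 2.25, 2.20, 2.14 and 2.20 in cKO and 2.21, 2.28, 2.23 and 2.17 in controls. The late groups did not overlap, replicate 3 included, and the early groups did. The sums themselves overlapped between late groups, with 2023, 2110 and 3142 CPM for Mrpl in cKO hearts and 3097, 2716 and 2452 in controls. The ratio rests on abundant genes. Mrpl42 made up 9.78% of the Mrpl sum in controls with a mean difference of -169 CPM, and Mrps23, 11.7% of the Mrps sum, had one of 59.8 CPM. Without Mrpl42 the ratio was 1.81 to 1.89 in cKO hearts against 2.05 to 2.08 in controls, and without Mrps23 it was 2.25 to 2.35 against 2.567 to 2.604. Grouping was by symbol, so Mrps18a and Mrps30, which structures place in the large subunit, counted as Mrps, as did Mrps36. Their mean differences were 40.5, 12.0 and -12.6 CPM. A ratio with genes placed by structure was not computed. With Mrps18a and Mrps30 moved, the large-subunit sum was 2161 to 3340 CPM in late cKO hearts and 2544 to 3211 in controls. The small-subunit sum was then 935 to 1400 against 983 to 1229 CPM. How much of the difference in ratio rests on grouping by symbol was not measured. Without Mrps18a the ratio was 2.055 to 2.153 against 2.398 to 2.43, and without Mrps30 1.98 to 2.049 against 2.351 to 2.384. These ratios are a description and were not tested.

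**Figure D5:**
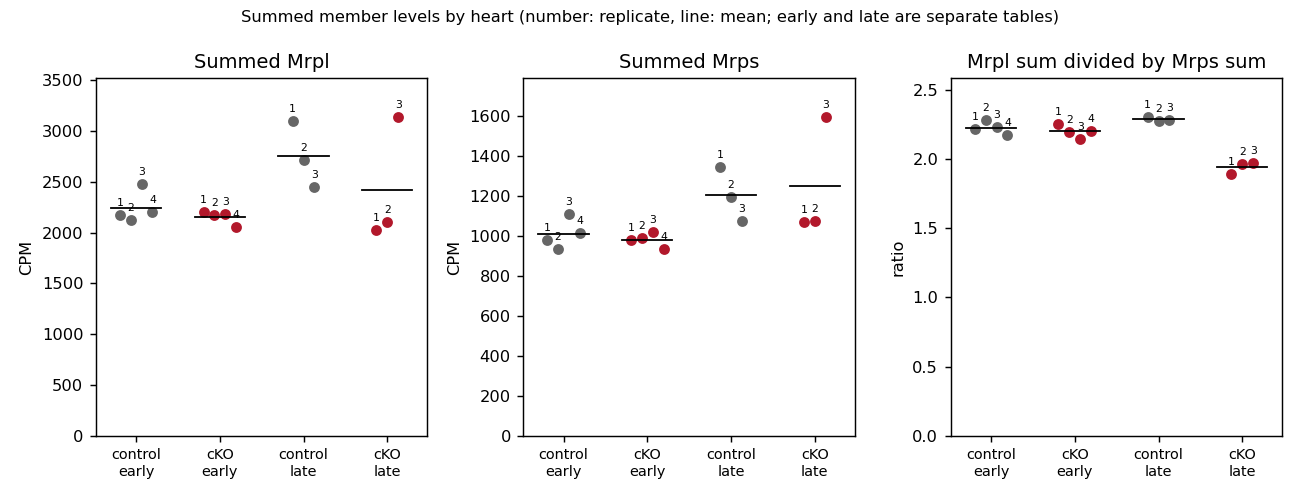
Summed CPM of the 47 Mrpl and 29 Mrps members and their ratio in each heart, with the replicate number at each point and a line at the group mean. Axes start at 0. The ratio of late cKO hearts, 1.89 to 1.97, lies below the other 3 groups, which lie between 2.14 and 2.30.

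Levels per length differed widely among members. As CPM per kilobase of the principal transcript in late controls, the median was 34.9 for Mrpl, over a range of 5.33 to 404.7, and 23.6 for Mrps, over 5.54 to 124. The highest large-subunit genes were Mrpl42 (404.7 ± 53.9, SD), Mrpl30 (145.3 ± 21.7), Mrpl12 (123.3 ± 17.0) and Mrpl28 (101.0 ± 15.1). Mrpl30 and Mrpl12 lay within their spread of each other. The highest genes named Mrps were Mrps21 (124.0 ± 17.8), Mrps23 (105.7 ± 9.5) and Mrps18a (71.0 ± 7.88), the last of these placed in the large subunit by structure. In late cKO hearts Mrpl42 stood at 150.9 ± 30, within its spread of Mrpl33 (140.1 ± 38.8) and Mrps23 (150.5 ± 32.1), while Mrps21 went from rank 3 to rank 16 among all members. Of these abundant genes Mrpl30 and Mrpl28 also fell late, by -0.57 ± 0.20 and -0.73 ± 0.22 on the log2 scale (adjusted p = 0.030 and 0.016). Both calls were lost without cKO replicate 1, cKO replicate 2 or control replicate 1, and that of Mrpl30 also without control replicate 2. Mrps23 rose (log2 0.51 ± 0.16, adjusted p = 0.019), a call lost without control replicate 2 or 3 and with upper-quartile factors (0.34, adjusted p = 0.0883). Its log2 value was 0.33 without cKO replicate 3.

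Rises and falls were found among members of bacterial origin and among those specific to mitochondria. The lists of origin leave out Mrps18a and Mrps18b, which descend from a bacterial protein and rose late, so the bacterial counts do not include them. Mrpl55, Mrpl57, Mrps28 and Mrps36 are in none of these lists either. Mrps30, which rose, is counted with the mitochondria-specific genes of the large subunit. Over all genes 65% were called with 6 hearts and 69.7% without cKO replicate 3. In the small subunit, 7 of 9 mitochondria-specific genes were called, 3 up and 4 down, and 4 of 15 genes of bacterial origin, 2 up and 2 down. In the large subunit, 8 of 17 mitochondria-specific genes (3 up, 5 down) and 13 of 29 bacterial ones (7 up, 6 down) were called. Without cKO replicate 3 these counts were 3 up and 4 down, 2 up and 7 down, 3 up and 8 down, and 6 up and 15 down, in the same order. By place, the stalk had 1 rise among 4 tested genes, the tunnel exit 1 rise and 2 falls of 8, and the central protuberance 1 rise and 1 fall of 7. The head of the small subunit had 1 rise and 3 falls of 8 and its body 4 rises and 3 falls of 15. Without cKO replicate 3 the stalk had 1 rise and 2 falls, the tunnel exit 1 and 4, the central protuberance 1 and 2, the head 1 and 5 and the body 4 and 6. The groups were small, and the difference between them was not tested.

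The change with time was tested as the late minus the early log2 fold change. By this contrast 14 members moved up and 16 down, beside 29.8% and 31.3% of all genes, or 39.5% of members beside 61.2% of genes. Of the members, 8 Mrpl and 6 Mrps moved up and 9 Mrpl and 7 Mrps down. Each of these 30 was also called late, in the same direction, which is part of the same late data. The strongest in each direction were Mrps18b (1.10 ± 0.16, adjusted p = 3.23e-05), Mrpl20 (1.49 ± 0.23, 4.38e-05) and Mrps10 (1.24 ± 0.22, 0.0002) upwards and Mrps36 (-2.01 ± 0.17, 1.06e-07), Mrpl18 (-1.27 ± 0.15, 3.87e-06) and Mrpl42 (-1.31 ± 0.18, 1.34e-05) downwards. The early level of Mrps36 had been 7.48 to 8.39 CPM in cKO hearts and 6.95 to 9.17 in controls, that of Mrpl20 23.2 to 27.7 against 23.2 to 28.4, and both groups overlapped. Time and count table cannot be told apart in their levels, and only the within-table changes were set against each other. Without late cKO replicate 3 the contrast called 12 members higher and 32 lower, beside 4554 higher and 4849 lower of 14652 genes.

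Other proteins that serve mitochondrial translation were counted from lists of their genes. Of 6 tested mitoribosomal proteins under other symbols, Ptcd3, a small-subunit protein, was called with all 6 hearts, at 55.9 to 60.0 CPM in cKO hearts and 95.4 to 109.2 in controls (log2 -0.78 ± 0.11, adjusted p = 0.00022). Without cKO replicate 3, 3 of the 6 fell and 0 rose. Of 15 translation factors 7 fell and 0 rose, with a median of -0.27, and 9 fell without that heart. The elongation factor Tufm stood at 48.3, 44.8 and 58.3 CPM against 175.6, 155.2 and 146.6 (log2 -1.66 ± 0.14, adjusted p = 1.1e-05). Taco1, which activates translation of mt-Co1, fell by 0.89 on the log2 scale and the initiation factor Mtif2 by 0.76. Of 17 mitochondrial tRNA synthetases 5 fell, among them Cars2 (-1.67), Hars2 (-1.10) and Aars2 (-0.95), and 2 rose. Leaving out cKO replicate 3 brought these to 9 falls and 2 rises. Of 28 assembly factors 8 fell and 5 rose, and 10 fell and 5 rose without that heart. Mettl17 and Mtg2, factors of small- and large-subunit assembly, fell by 1.31 and 1.25 on the log2 scale, and Mpv17l2, an assembly factor of the inner membrane, rose from 10.6 to 12.4 CPM in controls to 23.4, 25.7 and 39.3 in cKO hearts (log2 1.33 ± 0.20, adjusted p = 0.00033).

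The RNAs of the organelle itself went in different directions. Of the ribosomal RNAs, mt-Rnr1 (small subunit) was at 1448 to 1701 CPM in late cKO hearts and 2337 to 2566 in controls (log2 -0.62 ± 0.13, adjusted p = 0.0021). The large-subunit mt-Rnr2 was at 7138 to 11570 against 4784 to 5551 CPM (0.84 ± 0.19, 0.0038). Libraries were made from poly-A selected RNA, which limits what these levels say about ribosomal RNA. Of 7 tested mitochondrial mRNAs 3 fell, mt-Co1 (-1.82), mt-Nd4 (-0.79) and mt-Cytb (-0.45), and 0 rose. Without cKO replicate 3, 8 were tested, of which 3 fell and 2 rose. The call of mt-Cytb was lost whichever cKO heart was left out, and without control replicate 2 or 3 (adjusted p at most 0.064).

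For comparison, of 77 tested cytosolic ribosomal protein genes 17 rose and 1 fell late (median 0.36), with Rpl3 at 359.2 to 604.7 CPM against 138.0 to 149.9. Without cKO replicate 3 these became 15 rises and 11 falls, with a median of 0.02. Of 36 nuclear complex I genes 27 fell and 0 rose (median -0.72), and 34 fell without that heart. Ndufs1, Ndufa1 and Ndufb5 fell by 1.11, 1.21 and 1.21 on the log2 scale. Rises and falls were both present among the members, and 0 complex I genes rose. The difference between the lists was not tested. Among 12 regulators of mitochondrial gene expression, Myc rose at both times (log2 1.42 early and 3.31 late, adjusted p = 0.0087 and 1.37e-06). Ppargc1a, which encodes the coactivator PGC-1α, fell early (70.7 to 98.5 against 110.1 to 144.3 CPM, log2 -0.58, adjusted p = 0.022), and late its groups overlapped (-0.49, 0.13). The early call of Ppargc1a was lost without cKO replicate 2 or 3, without control replicate 1, 2 or 4 (adjusted p at most 0.0727) and in the fit of all 14 samples (0.416). Yy1 and Polrmt fell late (-0.65 and -0.56). Of the 12 regulators 2 rose and 2 fell late, and 4 rose and 4 fell without cKO replicate 3.

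Many members start next to another gene on the opposite strand, a divergent arrangement in which 1 stretch of DNA serves both. A divergent neighbour within 1000 bases was found for 18 members, and the pairs did not keep 1 direction. Mrpl49, 59 bases from Fau, fell while Fau, a cytosolic ribosomal protein gene, rose (log2 0.82 ± 0.25, adjusted p = 0.017). Mrpl54, 26 bases from Apba3, rose while Apba3 fell (-0.76 ± 0.14, adjusted p = 0.00096). Mrps18c and Mrps34 likewise rose beside falls of Helq (-0.44) and Eme2 (-0.66). Mrpl32 rose with Psma2 (0.80) and Mrpl50 fell with Zfp189 (-0.80). In all, the member and its neighbour were both called in 6 of the 18 pairs, 2 of them in the same direction. Late, 46.1% of members and 65% of all genes were called, with 31.8% of all genes higher and 33.2% lower. Whether the pairs differed from these shares was not tested. Of the 76 members 31 share some exon bases with another annotated gene, 17 of them at least 10%. In libraries without strand this can add reads of the neighbour or take reads from the member, and which of these occurred was not tested. The largest shares were those of Mrps34 (77.8%, with Mapk8ip3 and Nme3) and Mrps25 (69.8%, with Nr2c2).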

How the data were processed

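RNA of whole hearts was measured by RNA-seq. Per the labels' protocols, poly-A RNA from 100 ng of total RNA was made into TruSeq V2 libraries, which do not mark the strand, and read as single ends of 100 nt. Trimmomatic 0.36, STAR 2.6.0c and the build GRCm38 are named per the submitters' processing notes. No source used here names the counting tool or its annotation. The authors deposited whole-number counts per gene symbol in 1 table per time point, with no normalization visible in the values. Depths, given in the report, set the precision of low genes such as Mrps36 and Mrpl23.

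Each table was tested here over all genes with edgeR 4.0.16 (R 4.3.3), using the quasi-likelihood F test, TMM factors, Benjamini-Hochberg adjustment and filterByExpr with a minimum count of 10 and a minimum total of 15. A call needed an adjusted p under 0.05. The change with time was a contrast of 4 group means over all 14 libraries. Standard errors were obtained by dividing the absolute log2 fold change by the root of its F statistic. CPM values use TMM-scaled library sizes. Alternatives were DESeq2 1.42.0, other factors and filters, a replicate block, left-out hearts and early cKO replicate 4 as a control. Gene positions and lengths come from GENCODE M21 on GRCm38. The procedure was tested on simulated data.

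Members, lists and naming rules were chosen with earlier results of these data known. Named are Fam210a, the 4 smallest early p-values, the 6 largest late rises and falls without overlap and the 3 smallest late changes. Also named are the 3 strongest differences in each direction, the most abundant members per length, the Mrps18 paralogues, Mrps30, Mrps36, Mrpl12, Mrps12, members near the count rule and up to 3 genes per other list. Lists are described by counts and medians. Whether libraries come from separate animals is not stated in the labels, and p-values then reflect only how much these samples vary, which may be technical.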

Additional observations from a re-analysis of the deposited data

Results flagged for a closer look

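In the early groups of 4 hearts, 5 of 56 group values of the named members held a heart far from the others, where chance gives about 1 in 20. The gap of that heart to its nearest neighbour took a share of the whole range of the group above Dixon's 95% critical value. Control replicate 3 was the high heart for Mrpl18 (share 0.86, at 86.0 CPM), Mrps14 (0.858, at 34.0 CPM) and Mrpl38 (0.834, at 51.2 CPM). Among cKO hearts, replicate 4 was low for Mrps18b (0.91, at 14.7 CPM) and replicate 3 stood off for Mrps12 (0.868, at 25.4 CPM).

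For 14 named members the cKO effect differed between the times by the edgeR test of the difference itself. Most of them were named for the size of their late change or difference in these same data, so their calls are no separate support. The same test called 61.2% of all genes and 39.5% of members. The late minus early log2 fold change was positive for Mrpl20 (1.49), Mrps10 (1.24), Mrps18b (1.10), Mrps22 (0.92), Mrpl54 (0.83), Mrps18a (0.83) and Mrpl33 (0.72). It was negative for Mrps36 (-2.01), Mrpl42 (-1.31), Mrpl18 (-1.27), Mrps35 (-1.19), Mrpl49 (-1.08), Mrps21 (-0.96) and Mrpl39 (-0.61). Adjusted p-values ran from 1.06e-07 for Mrps36 to 0.016 for Mrpl54. With upper-quartile factors the Mrpl54 difference was 0.63 and no longer called (adjusted p = 0.0544).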

How the results depend on the processing

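No alternative called a member in the early hearts or turned a called member to the opposite direction. At an adjusted p under 0.01, late calls were 6 rises (Mrpl 2, Mrps 4) and 13 falls (Mrpl 6, Mrps 7), the difference had 8 rises (Mrpl 3), and 26 genes were called early over all genes. At that threshold 7735 of all 14942 genes were called late and 7187 of 14555 for the difference. Upper-quartile factors gave 8 late rises (Mrpl 4, Mrps 4) and 30 falls (Mrpl 18, Mrps 12), and 8 rises (Mrpl 3) and 27 falls (Mrpl 17) for the difference. Among all genes these factors gave 3848 rises and 5825 falls late, and 3328 and 5570 for the difference. Over all early genes, 83 were called, and 176 by DESeq2, 388 without a count filter and 162 with cKO replicate 4 as a control, which also moved the early Mrpl median to 0.015. Same-numbered hearts did not deviate together (correlations -0.0889 to -0.0392 early and -0.514 to -0.0633 late), so the numbers give no pairing. With the replicate block, late rises were 8 (Mrpl 4, Mrps 4), 24 of the 35 late calls kept their direction and call, and Mrps14 was at -0.0085. Among all genes the block gave 4008 rises and 4366 falls late. Among named genes, adjusted p was then 0.0587 for Mrpl30, 0.0597 for Mrps23, 0.0811 for Mrps18c, 0.103 for Mrps30 and 0.0807 for mt-Cytb late, and 0.0586 for Ppargc1a early. Members near 0 changed sign: Mrpl41 was at 0.0197 with DESeq2, 0.0195 with RLE factors and 0.012 in the fit of all 14 samples, and Mrps14 was at -0.0023 without mitochondrial-encoded genes, -0.0022 without a filter and -0.17 with upper-quartile factors. Leaving out 1 heart gave 7 to 19 late rises (Mrpl 3 to 11, Mrps 4 to 8) and 13 to 37 falls (Mrpl 6 to 24, Mrps 7 to 13). Between 8539 and 10720 of all genes were then called late. For the difference, leaving out 1 heart gave 12 to 32 falls (Mrpl 6 to 20, Mrps 6 to 12) and 5 to 10 Mrps rises, beside 8359 to 9403 calls over all genes. Early it gave 45 to 181 calls over all genes and Mrps medians of -0.094 to -0.0032. Late values over these fits were -0.45 to 0.15 for Mrpl12, -0.23 to 0.083 for Mrpl38, -0.22 to 0.15 for Mrpl41, -0.46 to 0.031 for Mrps12 and -0.17 to 0.11 for Mrps14, and the difference for Mrpl23 was -0.24 to 0.084. The causes were not tested. With 3 hearts a group, 1 heart that stands apart limits what can be called among moderate changes.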
